A study of Mus musculus with 30 samples.

Results

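Keratins are the intermediate filament proteins of epithelial cells, and each filament pairs a type I with a type II keratin. Simple epithelium such as the lining of the colon uses *Krt8* with *Krt18*, *Krt19* and *Krt20*, of which *Krt20* marks mature surface cells of the intestine. Stratified squamous epithelium, such as that of skin, mouth and anal canal, uses *Krt5* with *Krt14* in its basal layer, *Krt4* with *Krt13* above it in non-keratinised linings, and *Krt6a* in regenerating or stressed layers.

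Keratin genes of these kinds were chosen by gene symbol, 10 of the 46078 genes counted. The 5 simple epithelium members were the type II genes *Krt8* and *Krt7* and the type I genes *Krt18*, *Krt19* and *Krt20*. The 5 squamous members were the type II genes *Krt4*, *Krt5* and *Krt6a* and the type I genes *Krt13* and *Krt14*. RNA was sequenced from the scraped epithelial layer of the colon of wild-type C57BL/6J mice, in 30 libraries of 6 groups with 5 mice each. Female and male mice received vehicle and were killed at 9 weeks, or received azoxymethane (AOM, a carcinogen, 10 mg/kg injected once) followed by 3 cycles of dextran sodium sulphate (DSS, an irritant of the gut lining, 2.5% in drinking water) and were killed at 9 or 15 weeks. The labels give vehicle mice at 9 weeks alone, so AOM/DSS and age cannot be told apart at 15 weeks, and the same vehicle libraries served both time points. A scrape is a mixture of cells, and a smaller number of cells of a type cannot be told apart from less RNA per cell.

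Counts on genes ran from 9265804 to 30806392 per library (median 24697064), and no columns were identical. The library male vehicle replicate 1 stood apart. All 14 genes of the mesenchyme and smooth muscle list were higher there than in any other library, with a summed level of 5837 CPM (counts scaled to a common library size) against 27.0 to 585 CPM elsewhere, and *Cdx2*, a defining transcription factor of intestinal epithelium, had 113 counts there against 1463 to 9977 elsewhere. *Cdx1*, a related factor on the same list, was also lowest there by CPM (231 CPM). The other defining colon epithelium markers lay within the range of the rest, with 45435 counts of *Epcam*, 22590 of *Vil1* and 135340 of *Lgals4*. The called changes from vehicle that involve males are therefore given with and without that library.

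The members lie in the keratin clusters of chromosomes 11 and 15 (GRCm38). *Krt20* (chr11:99428403-99438150), *Krt13* (chr11:100117327-100121566), *Krt19* (chr11:100140810-100148665) and *Krt14* (chr11:100203162-100207548) form the type I series, all on the minus strand. *Krt7* (chr15:101411043-101430313, plus strand), *Krt6a* (chr15:101689932-101694307), *Krt5* (chr15:101707070-101712891), *Krt4* (chr15:101918536-101924735) and *Krt8* (chr15:101996711-102004342) form the type II series, and the type I gene *Krt18* (chr15:102028216-102032026, plus strand) sits beside *Krt8*. RefSeq (GRCm38.p6) gave a start site for 7 members. The 100 bases before it are shown 5′ to 3′ for the neighbouring partners *Krt8* and *Krt18*, for *Krt20*, and for the squamous genes *Krt13* (the upstream of its start sites) and *Krt5*. Capitals mark TATAAA or ATAAAA.
Krt8, chr15:102004343-102004442, minus strand: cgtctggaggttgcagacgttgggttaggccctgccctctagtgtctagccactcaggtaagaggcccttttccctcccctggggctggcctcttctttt
Krt18, chr15:102028116-102028215, plus strand: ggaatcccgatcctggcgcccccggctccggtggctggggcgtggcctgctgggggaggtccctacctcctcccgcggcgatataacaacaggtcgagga
Krt20, chr11:99438154-99438253, minus strand: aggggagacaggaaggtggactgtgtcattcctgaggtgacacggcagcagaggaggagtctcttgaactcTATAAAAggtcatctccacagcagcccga
Krt13, chr11:100121567-100121666, minus strand: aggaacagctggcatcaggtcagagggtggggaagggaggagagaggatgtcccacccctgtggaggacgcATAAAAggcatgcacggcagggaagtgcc
Krt5, chr15:101712906-101713005, minus strand: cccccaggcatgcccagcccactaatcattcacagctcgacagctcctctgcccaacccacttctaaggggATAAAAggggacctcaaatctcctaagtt
The letters TATAAA, searched on both strands, were found in the *Krt20* window, and 5.56% of all 32851 RefSeq windows of that length hold them. The letters ATAAAA, added after the sequences were read and overlapping TATAAA in *Krt20*, begin at position -29 from the start in *Krt13* and *Krt5* and occur in 7.07% of all windows. Neither run was found in the *Krt8* or *Krt18* window. The letters GGGCGG (24.7% of all windows) and TGANTCA (2.73%) were in none of the 5 windows shown. Of the windows not shown, that of the downstream start of *Krt13* holds TGANTCA (as TGACTCA, at -34), that of *Krt7* holds GGGCGG at 2 places on the other strand and ATAAAA at -7, and that of *Krt14* holds none of the 4.

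The simple keratins were abundant in each of the 30 libraries, while the squamous keratins were near 0 in 29 of them. In TPM, a level scaled by transcript length, which allows genes of one library to be compared per length, the medians over 30 libraries were 1275 for *Krt8*, 849 for *Krt19*, 385 for *Krt20*, 189 for *Krt18* and 18.9 for *Krt7*. That order held in 30 of 30 libraries for each pair of neighbours. The ratio of *Krt8* to *Krt19* TPM lay between 1.33 and 1.81, that of *Krt19* to *Krt20* between 1.56 and 4.99, that of *Krt20* to *Krt18* between 1.33 and 3.44, and that of *Krt18* to *Krt7* between 6.66 and 15.4. *Krt7* was also last by CPM, with a median of 129 CPM against 454 CPM for *Krt18*. The summed type I simple keratins (*Krt18*, *Krt19*, *Krt20*) were 0.869 to 1.22 times the summed type II ones (*Krt8*, *Krt7*) in TPM, with a median ratio of 1.11. The 0.869, and the *Krt19* to *Krt20* ratio of 4.99, were both those of male vehicle replicate 1. The next lowest ratio of type I to type II was 1.02, in male vehicle replicate 5. Together the 5 genes took 0.642% to 1.34% of the counts of a library.

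Levels between libraries are given in CPM below, since a single mitochondrial gene, *mt-Nd4l*, took 39.2% to 58.1% of the deposited TPM and *Krt8* TPM per CPM varied 4.52-fold between libraries. Of the *Krt8* transcript, 26.7% of its 51-base windows also occur in the pseudogene *Krt8-ps*, so that reads could be shared between them. *Krt19*, *Krt20* and *Krt7* shared no such window with another gene.

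The first question was whether the keratins of simple epithelium changed with AOM/DSS. A gene was called where the adjusted p of the edgeR quasi-likelihood test (Benjamini-Hochberg over 16261 genes) was below 0.05, the log2 fold change was beyond 0.4 in size and the mean FPKM was at least 1 on a compared side. Of the 10 members, 7 were abundant enough to be tested, the 5 simple ones and *Krt13* and *Krt14*. *Krt4*, *Krt5* and *Krt6a* did not pass the filter on low counts. At 9 weeks, with the sexes averaged, 1 of 7 tested members was called, *Krt20*, beside 8.29% of all genes tested. At 15 weeks 3 of 7 were called, all higher, *Krt18*, *Krt20* and *Krt7*, beside 7.35% of all genes. Between the AOM/DSS groups killed at 15 and at 9 weeks none of the 7 was called by edgeR or by DESeq2 (edgeR called 2.32% of all genes). An unadjusted edgeR p below 0.05 was seen for 1 of 7 members and for 3846 of all 16261 genes tested.

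*Krt20* rose at both time points. Its level was 568 to 1656 CPM in the 10 vehicle libraries (median 1080), 1330 to 1828 CPM in the 10 libraries at 9 weeks (median 1597) and 1283 to 2524 CPM in the 10 at 15 weeks (median 1562). The ranges overlapped, but each AOM/DSS library lay above the vehicle median. The log2 fold change was 0.59 ± 0.14 (SE) at 9 weeks (edgeR adjusted p = 0.00482) and 0.71 ± 0.14 at 15 weeks (edgeR adjusted p = 0.0023). Without male vehicle replicate 1, where *Krt20* was at 577 CPM, the changes were 0.53 ± 0.14 (edgeR adjusted p = 0.00934) and 0.65 ± 0.14 (edgeR adjusted p = 0.00481). *Krt20* made up a median of 12.4% of the summed simple keratin TPM in vehicle libraries, 15.9% at 9 weeks and 15.9% at 15 weeks.

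*Krt18*, the type I partner of *Krt8*, rose at 15 weeks. It lay between 308 and 498 CPM in vehicle libraries (median 408), between 382 and 542 CPM at 9 weeks (median 467) and between 420 and 892 CPM at 15 weeks (median 506). The groups overlapped, with 5 of 10 libraries at 15 weeks above the highest vehicle library. The log2 fold change was 0.21 ± 0.13 at 9 weeks (edgeR adjusted p = 0.282) and 0.56 ± 0.13 at 15 weeks (edgeR adjusted p = 0.00525). Between the AOM/DSS time points *Krt18* differed by 0.35 ± 0.13 (edgeR adjusted p = 0.0979). *Krt8* itself went from a median of 3934 CPM in vehicle libraries to 4193 CPM at 9 weeks and 4730 CPM at 15 weeks, and its log2 fold change at 15 weeks, 0.33 ± 0.11, passed the adjusted p (edgeR, 0.0332) but not the minimum of 0.4.

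*Krt7*, a type II keratin of ducts and of some glandular epithelia, was higher at 15 weeks, from a median of 108 CPM in vehicle libraries (lowest 75.7, highest 165.6) to one of 157.1 CPM (lowest 87.7, highest 259.9). Its log2 fold change was 0.54 ± 0.15 (edgeR adjusted p = 0.0152) at 15 weeks and 0.36 ± 0.15 (edgeR adjusted p = 0.0936) at 9 weeks. *Krt19*, the type I keratin without a tail domain, had log2 fold changes of 0.09 ± 0.11 at 9 weeks and 0.23 ± 0.11 at 15 weeks and was called at neither (edgeR adjusted p = 0.631 and 0.138). Without male vehicle replicate 1, *Krt20* alone was called at 9 weeks and *Krt18*, *Krt20* and *Krt7* at 15 weeks (*Krt18* 0.53 ± 0.13 and *Krt7* 0.50 ± 0.15, edgeR adjusted p = 0.0115 and 0.0333), 1 of 7 beside 8.03% of all genes at 9 weeks and 3 of 7 beside 5.22% at 15 weeks.

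**Figure D1:**
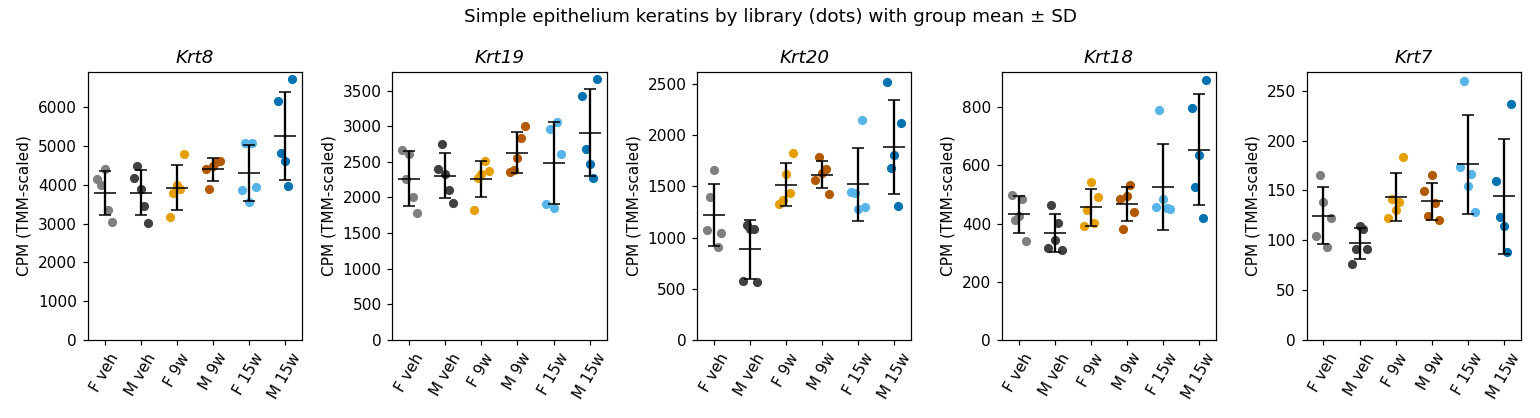
CPM (TMM-scaled, linear axes from 0) of the 5 simple epithelium keratins in each library (dots) of female (F) and male (M) mice given vehicle (veh) or AOM/DSS and killed at 9 weeks (9w) or 15 weeks (15w), with the group mean and SD (n = 5). Krt20 in males lay at 568 to 1121 CPM with vehicle and at 1423 to 1790 CPM at 9 weeks, without overlap. How many of all genes were separated in this way was not counted.

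The second question was whether the response differed between the sexes. In males *Krt20* was at 577, 1121, 1087, 1082 and 568 CPM with vehicle (887 ± 288, SD, n = 5), at 1568, 1790, 1627, 1672 and 1423 CPM at 9 weeks (1616 ± 135) and at 2524, 1679, 1808, 1309 and 2118 CPM at 15 weeks (1887 ± 459). All 5 libraries at each AOM/DSS time point lay above all 5 vehicle libraries. In females the means were 1217 ± 303, 1517 ± 208 and 1522 ± 359 CPM, and the ranges overlapped. The log2 fold change in males was 0.87 ± 0.20 at 9 weeks (edgeR adjusted p = 0.00739) and 1.09 ± 0.20 at 15 weeks (edgeR adjusted p = 0.00185), and in females 0.32 ± 0.20 (edgeR adjusted p = 0.462) and 0.32 ± 0.20 (edgeR adjusted p = 0.566). *Krt7* in males also lay without overlap at 9 weeks (120.0 to 165.1 CPM against 75.7 to 114.5 CPM with vehicle), but not at 15 weeks. The share of all genes without such overlap was not counted.

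The difference between the sexes in these changes was not called for any of the 7 members at either time point, as for 0% of all genes. For *Krt20* the male change exceeded the female change by 0.55 ± 0.29 at 9 weeks and 0.77 ± 0.29 at 15 weeks on the log2 scale (edgeR, adjusted p = 0.701 and 0.504, unadjusted p = 0.0664 and 0.0124). Without male vehicle replicate 1 these differences were 0.43 ± 0.28 and 0.65 ± 0.28 (edgeR, unadjusted p = 0.136 and 0.0281). Over the 7 members the unadjusted edgeR p was below 0.05 for 2 at 9 weeks, *Krt13* and *Krt14*, and 2 at 15 weeks, *Krt18* and *Krt20*. For *Krt13* and *Krt14* at 9 weeks the male change was the lower one (-6.15 and -3.39), with the outlying male vehicle replicate 1 in the fit. Of all 16261 genes tested, 1205 at 9 weeks and 1245 at 15 weeks had such a p. DESeq2 called no member.

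In females edgeR called none of the 7 members at 9 weeks, beside 2.90% of all genes, or at 15 weeks, beside 0.0984%. DESeq2 called none of them either. The unadjusted p was below 0.05 for 0 members at 9 weeks and for 1 at 15 weeks, *Krt7*, whose log2 fold change was 0.50 ± 0.21 (edgeR adjusted p = 0.394). In females 2796 of all 16261 genes tested at 9 weeks and 1776 at 15 weeks had such an edgeR p. In males 3 of 7 were called at 15 weeks beside 8.92% of all genes, *Krt8*, *Krt18* and *Krt20*. *Krt8* rose from 3798 ± 584 to 5261 ± 1145 CPM (SD, n = 5 each; log2 fold change 0.47 ± 0.15, edgeR adjusted p = 0.0358). *Krt18* rose from 367 ± 66.0 to 654 ± 192 CPM (0.83 ± 0.18, edgeR adjusted p = 0.00463). Without male vehicle replicate 1, *Krt18* and *Krt20* were called (0.78 ± 0.19 and 0.97 ± 0.21, edgeR adjusted p = 0.0192 and 0.00833, beside 3.76% of all genes), and *Krt8* was not (0.51 ± 0.16, edgeR adjusted p = 0.0615). *Krt8* was also lost without male vehicle replicate 3, 4 or 5 or without male 15-week replicate 1 or 5. With the compared libraries alone in the fit, all 3 calls were lost (*Krt8*, *Krt18* and *Krt20*, edgeR adjusted p = 0.127, 0.0648 and 0.0536).

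Between males and females none of the 7 members was called with vehicle (0.178% of all genes), at 9 weeks (0.0492%) or at 15 weeks (0.184%). The unadjusted p was below 0.05 for 3 members with vehicle (*Krt20*, *Krt13* and *Krt14*) and for 0 at 9 and at 15 weeks. Of all 16261 genes tested, 3035 with vehicle, 630 at 9 weeks and 2009 at 15 weeks had such an edgeR p. With vehicle, DESeq2 called 2 members, *Krt4* and *Krt14*, higher in males, and at the other times none. DESeq2 was run without the filter on low counts, so that *Krt4* could be called. The share of all genes that DESeq2 called is not given here. Male vehicle replicate 1 held 1937 counts of *Krt4* against 0 or 1 in the other 4 male vehicle libraries, and 1155 of *Krt14* against 1 to 26. Without it the male minus female difference went from 7.01 to -0.45 for *Krt13*, from 3.93 to -0.20 for *Krt14* and from -0.46 to -0.34 for *Krt20* on the log2 scale (edgeR adjusted p = 0.913, 0.943 and 0.587 without it). DESeq2 was not run without that library.

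Epithelial content was followed by markers beside these changes. Of the 10 colon epithelium genes, 0 were called at 9 weeks and 0 at 15 weeks with the sexes averaged, with median log2 fold changes of 0.16 and 0.20, against medians over all genes tested of -0.02 and -0.03. Of the 9 measured desmosome and linker genes, which anchor keratin filaments at cell junctions, 1 rose at 9 weeks and the same gene rose at 15 weeks, *Dsc2* (0.60 ± 0.12 and 0.41 ± 0.12, edgeR adjusted p = 0.000992 and 0.0247), a desmosomal cadherin. Without male vehicle replicate 1 it was called at 9 weeks alone. Of 6 leukocyte genes, 4 rose at 9 weeks and 2 at 15 weeks. Of 14 mesenchyme and smooth muscle genes, 9 fell at 15 weeks, and 1 did so without male vehicle replicate 1. With the mesenchyme score as a covariate, the changes of *Krt20* were 0.65 at 9 weeks and 0.61 at 15 weeks. Of the 5 distal hindgut genes 2 fell at 15 weeks (1 without that library), of 3 tested mesothelium genes 1 rose at 15 weeks (none without it), no urothelium gene was called, and no proximal colon gene was called with all libraries, while *Slc10a2* fell at 9 weeks without that library (-2.40, edgeR adjusted p = 0.0479). The part of these cells in the keratin changes was not tested.

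**Figure D2:**
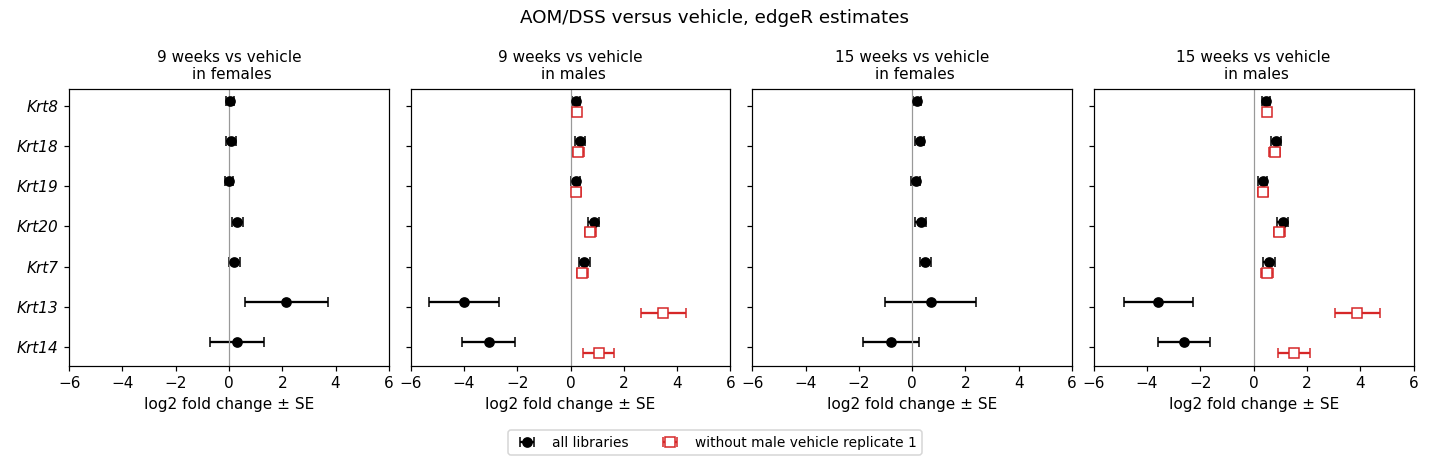
Log2 fold change (x axis, ± SE) of the 7 tested keratins in AOM/DSS against vehicle, by sex and time, with all libraries (filled circles) and without male vehicle replicate 1 (open squares, males only). The simple keratins kept their place, while Krt13 in males went from -4.00 to 3.48 at 9 weeks when that library was left out.

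The third question was whether squamous keratins appeared in single libraries. They did so in male vehicle replicate 1. That library held 2444 counts of *Krt13*, 1937 of *Krt4*, 1501 of *Krt6a*, 1155 of *Krt14* and 1085 of *Krt5*. In TPM the same library had 39.6 for *Krt13*, 24.3 for *Krt4*, 21.3 for *Krt6a*, 18.0 for *Krt14* and 13.2 for *Krt5*, of which the first 4 lay above *Krt7* of simple epithelium (17.0 TPM). It held 99.7% of all *Krt5* counts of the series, 91.9% of *Krt6a*, 91.8% of *Krt4*, 85.7% of *Krt13* and 69.6% of *Krt14*.

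*Krt5*, the type II keratin of the basal layer, was the most confined. It had 0 counts in 27 of 30 libraries, 2 counts in male 9-week replicate 1 and 1 count in male 9-week replicate 3. In male vehicle replicate 1 it stood at 35.2 CPM, 497 times the next library. *Krt14*, its type I partner, was seen in all 30 libraries, at 37.5 CPM there and at 0.0428 to 2.24 CPM in the others. Of the *Krt14* transcript, 11.04% of 51-base windows also occur in *Krt16*, so that *Krt14* counts could include reads of that gene, and *Krt5* shares 6.89% of its windows with *Krt6a*.

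*Krt13* and *Krt4*, the pair of non-keratinised squamous lining, were at 79.4 and 62.9 CPM in male vehicle replicate 1. The next highest library was male 15-week replicate 5 for both, with 2.43 and 3.32 CPM, so that the outlying library was 32.7 and 19.0 times as high. *Krt4* had more than 3 counts in 3 of the other 29 libraries and *Krt13* in 18 of them. *Krt6a* was at 48.7 CPM there and at most at 1.44 CPM elsewhere, but 43.3% of its windows also occur in *Krt6b*, so that these genes could not be fully separated.

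**Figure D3:**
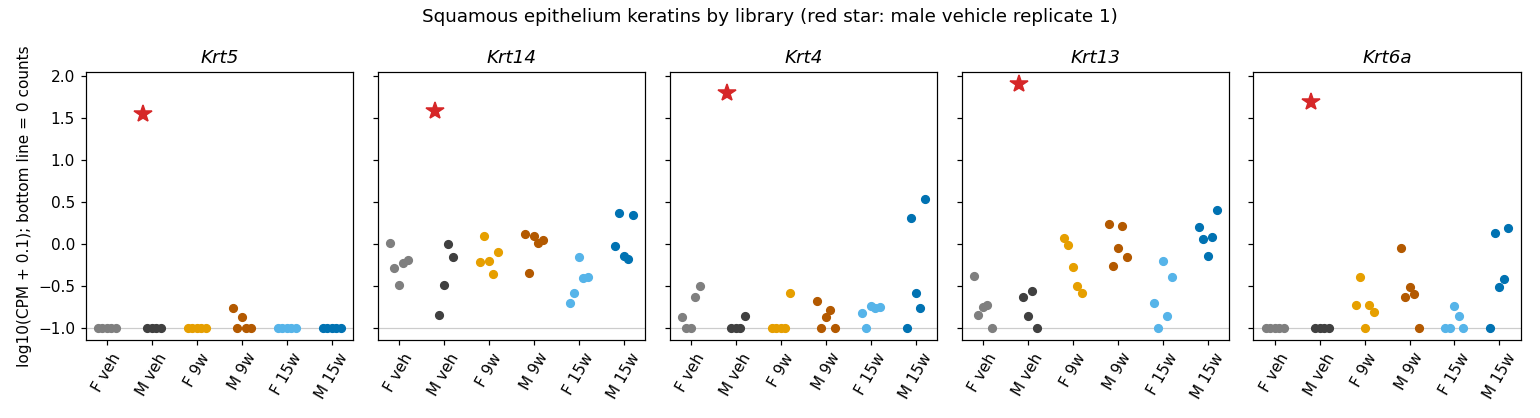
Level of the 5 squamous keratins, as log10(CPM + 0.1), in each library (dots) of the 6 groups, with male vehicle replicate 1 as a red star and the grey line at 0 counts. The star lies at 35.2 to 79.4 CPM in every panel, and the highest other library reaches 3.32 CPM (Krt4, male 15-week replicate 5).

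The other squamous markers went the same way in that library. Of 24 genes of the squamous epithelium list, 19 were higher there than in any other library, and 7 had more than 3 counts there and at most 3 in each of the others. All 5 defining genes were among the 19. *Krtdap*, a secreted protein of differentiating keratinocytes, had 386 counts and 0 in the other 29 libraries. *Trp63*, the transcription factor of basal squamous cells, had 79 counts against at most 3. *Lor*, a protein of the cornified envelope, had 93 against at most 8, and the desmosomal cadherins *Dsg3* and *Dsc3* had 79 and 23 against at most 9 and 11. The list's genes of highest TPM (*Tgm3*, *Sfn*, *Serpinb5*, *Sprr1a*, *Pkp1* and *Ly6d*) were counted in all 30 libraries, and of these only *Pkp1* was highest there, so they did not mark the library. With the sexes averaged, 4 of the list's 10 tested genes rose at 9 weeks, *Ly6d* (log2 fold change 2.10), *Sprr1a* (1.80), *Sfn* (0.60) and *Serpinb5* (0.45), and *Sbsn* fell (-0.78). At 15 weeks *Ly6d*, *Sprr1a* and *Sfn* rose and *Sbsn* fell. With that library left out, 4 and 3 genes rose and none fell.

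The library also held 20358 counts of *Des* and 43046 of *Myh11*, proteins of smooth muscle, against at most 796 and 1240 elsewhere, and 7911 of *Hoxd13*, a gene of the most distal gut, against at most 1440. Of 5 distal hindgut genes, 3 were highest there, and of 5 proximal colon genes none was. Of 6 mesothelium genes 1 was highest there, *Gpm6a*, with 27 counts, while *Wt1* and *Lrrn4* were at 0. Of 3 urothelium genes none was highest there, and *Upk2* was at 0. Of 6 leukocyte genes none was highest there. The simple keratins were within the range of the other libraries for *Krt8* (4171 CPM), *Krt18* (316 CPM), *Krt19* (2401 CPM) and *Krt20* (577 CPM), while *Krt7* (75.7 CPM) was the lowest of the 30. Its replicates in the group, male vehicle 2 to 5, had 0 counts of *Krt5* and *Krt6a*, so the signal was not shared by the treatment group. Where these transcripts came from was not tested.

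**Figure D4:**
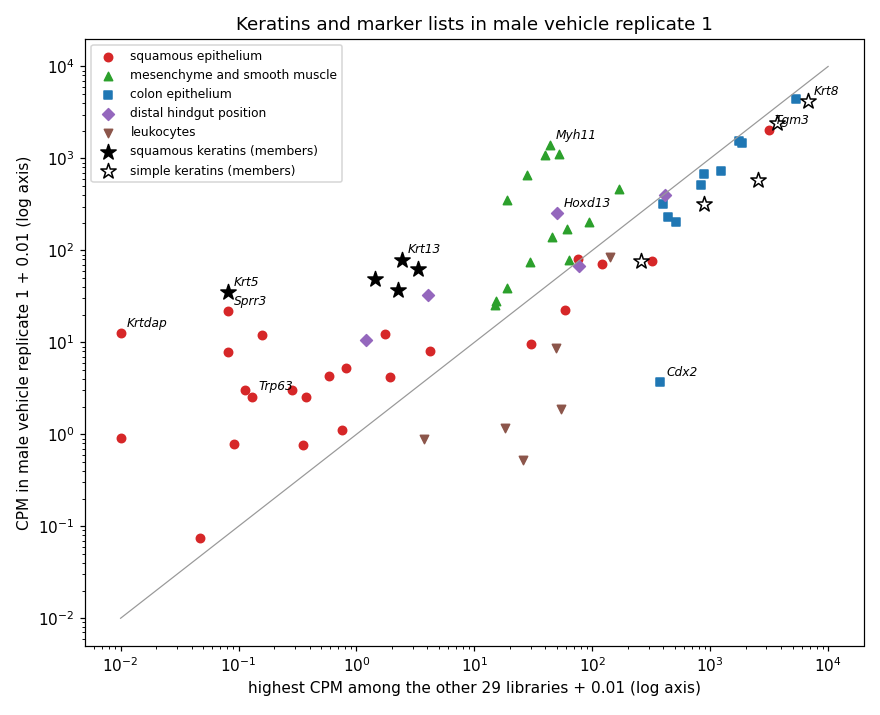
CPM in male vehicle replicate 1 (y axis) against the highest CPM among the other 29 libraries (x axis), both + 0.01 on log axes, for the marker lists and the keratins (stars), with the line of equality. Points above the line are highest in that library, which include all 5 squamous keratins and all 14 mesenchyme and smooth muscle genes, and Cdx2 lies far below it at 3.67 CPM.

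A weaker signal appeared in a few libraries of AOM/DSS males. The 5 squamous keratins summed to 9.30 CPM in male 15-week replicate 5, 6.40 CPM in male 15-week replicate 2 and 3.75 CPM in male 9-week replicate 1, against 263.8 CPM in male vehicle replicate 1 and a median of 1.07 CPM over the 29 other libraries. In male vehicle replicate 1, *Krt5* made up 35.9% of the *Krt4* and *Krt5* counts (95% interval 34.2% to 37.6%, exact Clopper-Pearson, counting error only). In male 15-week replicate 5, *Krt5* was 0 of 97 such counts, which allows up to 3.09% by a limit of 3 counts (exact upper bound 3.73%), and in male 15-week replicate 2 it was 0 of 47, which allows up to 6.38% by the same limit (exact upper bound 7.55%). Both exact bounds lie below the share in male vehicle replicate 1. They cover counting error and not the spread between mice. The libraries were picked for a high squamous sum, which includes *Krt4*. In male 9-week replicate 1, *Krt5* was 2 of 5 such counts (40%, exact 95% interval 5.27% to 85.3%), too few to tell its share from that of male vehicle replicate 1. *Krt14* had 62 and 55 counts in male 15-week replicates 5 and 2, and *Krt6a* had 42 and 30.

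Among the other 29 libraries, *Krt13* and *Krt6a* were more often counted after AOM/DSS, at 15 weeks mainly in males. *Krt6a* had 0 counts in all 9 remaining vehicle libraries, and had counts in 8 of 10 libraries at 9 weeks (at most 22) and in 6 of 10 at 15 weeks (at most 42). *Krt13* had a median of 2 counts in the 9 vehicle libraries (at most 9), of 18.5 at 9 weeks (3 to 50) and of 14 at 15 weeks (0 to 71). At 15 weeks females had 0 to 13 counts of *Krt13* (median 2) and males 15 to 71 (median 25). Counts of *Krt6a* at 15 weeks were 0 to 2 in females and 0 to 42 in males. In a fit without male vehicle replicate 1, chosen after seeing the data, the log2 fold change of *Krt13* was 2.82 ± 0.57 at 9 weeks (edgeR adjusted p = 0.00102) and 2.30 ± 0.59 at 15 weeks (edgeR adjusted p = 0.0147). Its mean FPKM stayed below 1 on both sides, so it was not called. In the 9 vehicle libraries kept, *Krt13* reached at most 0.317 CPM, so it passed the filter on low counts through the AOM/DSS groups. Male vehicle replicate 1 held the highest vehicle value of each squamous keratin, so leaving it out favoured higher changes. The adjusted p values of fits without it are therefore not a test of a rise. With no filter on low counts, *Krt6a* passed the adjusted p at both times (edgeR adjusted p = 0.00782 and 0.0467), *Krt4* at neither (at 15 weeks edgeR adjusted p = 0.0659), and *Krt14* differed by 0.68 ± 0.41 and 0.36 ± 0.42 in the filtered fit (edgeR adjusted p = 0.285 and 0.585).

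With all libraries the direction was the opposite. In males at 9 weeks 3 of 7 members were called beside 7.31% of all genes, *Krt20* higher and *Krt13* and *Krt14* lower, with log2 fold changes of -4.00 ± 1.31 and -3.08 ± 0.99 (edgeR adjusted p = 0.0492 and 0.0448). *Krt13* was at 79.4, 0.128, 0.0374, 0.173 and 0 CPM in the 5 male vehicle libraries and at 1.59, 0.436, 0.799, 1.53 and 0.590 CPM in the 5 at 9 weeks. A single vehicle library lay above all libraries at 9 weeks, and the other 4 lay below them. Without it *Krt13* differed by 3.48 ± 0.85 (edgeR adjusted p = 0.0131) and *Krt14* by 1.05 ± 0.59 (edgeR adjusted p = 0.33). With the highest vehicle value taken out, these are not a test of a rise. In that fit 1 of 7 members was called, *Krt20*, beside 4.85% of all genes. Leaving out any 1 of the 5 male 9-week libraries also ended both calls, as did no filter on low counts (edgeR adjusted p = 0.0624 and 0.0588) and the compared libraries alone (edgeR adjusted p = 0.186 and 0.187).

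Other keratins were described for comparison. Of 41 other keratin genes, 12 passed the filter, and 2 rose at 9 weeks with the sexes averaged, *Krt36* (1.98 ± 0.45, edgeR adjusted p = 0.00295) and *Krt83* (0.77 ± 0.17, edgeR adjusted p = 0.00228), both of hair and nail type. At 15 weeks none was called, and *Krt36* was at 1.45 ± 0.45 (edgeR adjusted p = 0.0293), below the FPKM minimum. By TPM over 30 libraries the highest were *Krt23* (median 3.94), *Krt83* (0.73), *Krt10* (0.524), *Krt84* (0.462), *Krt36* (0.325) and *Krt12* (0.324), all far below *Krt7*. *Krt10*, a type I keratin of keratinised epidermis, had 1295 counts in male vehicle replicate 1 against 8 to 103 elsewhere. *Krt6b*, *Krt1* and *Krt15*, named after their values were seen, had 677, 665 and 351 counts there against at most 4, 7 and 104. Of the 41 other keratin genes, 8 were highest in that library. *Krt17* was not, at 1.82 CPM there against up to 1.95 CPM elsewhere.

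The last question was whether partner keratins moved together over libraries, for 4 pairs. Over the 30 libraries log2 CPM of *Krt8* followed that of *Krt19* with Pearson r = 0.91 and Spearman rho = 0.87 (permutation p = 1e-05 for each, the smallest that 100000 permutations give, adjusted over the 4 pairs 2e-05 and 4e-05). *Krt8* followed *Krt18* with r = 0.78 and rho = 0.68 (permutation p = 1e-05 and 9e-05, adjusted 2e-05 and 0.00018). Centred within the 6 groups, r was 0.90 and 0.68, and without the 2 libraries farthest from the *Krt8* median it was 0.87 and 0.62. The libraries share one scaling, and no cause was tested.

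By Pearson r of log2 CPM the squamous pairs moved together through male vehicle replicate 1. *Krt5* with *Krt14* had r = 0.77 and rho = 0.47 (permutation p = 0.00258 and 0.00347, adjusted 0.00258 and 0.00463), and *Krt4* with *Krt13* had r = 0.71 and rho = 0.25 (permutation p = 0.00103 and 0.179, adjusted 0.00137 and 0.179). Centred within the 6 groups, that library included, r was 0.85 and 0.79 and rho 0.50 and 0.49 (permutation p for rho = 0.00496 and 0.00618). Without that library, uncentred r was 0.28 and 0.35 over 29 libraries (permutation p = 0.151 and 0.0589). On log2 CPM both Pearson relations thus rest on it. On log2(TPM + 0.1), *Krt4* with *Krt13* had r = 0.39 without it (permutation p = 0.0198). Spearman rho without it was 0.37 for *Krt5* with *Krt14* (permutation p = 0.0371, adjusted 0.0494), on at most 2 counts of *Krt5* in a library. For *Krt4* with *Krt13* it was 0.17 (permutation p = 0.382). Among tested genes those most like *Krt8* by Spearman rho over the 30 libraries were *Hn1* (0.89), *Krt19* (0.87), *Dedd2* (0.87) and *Gnb2* (0.85), given as a description. *Krt5* was at 0 in 27 libraries, and no likeness was computed for it.

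**Figure D5:**
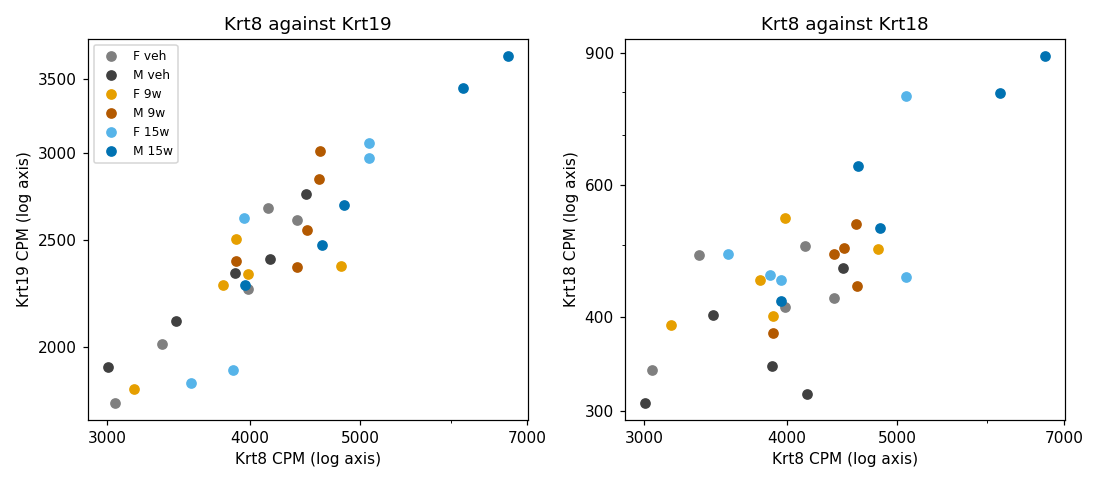
CPM of Krt19 (left) and Krt18 (right) against CPM of Krt8 in the 30 libraries on log axes, coloured by group (F female, M male, veh vehicle, 9w and 15w AOM/DSS). Pearson r of log2 CPM was 0.91 and 0.78, and 2 male 15-week libraries lie highest on both axes.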

How the data were processed

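The authors prepared stranded poly(A) libraries, trimmed reads with Trim Galore, aligned them with STAR to mm10 (GRCm38) and counted them per gene with featureCounts, per the labels and methods. The deposited counts are whole numbers without normalization. The deposited FPKM and TPM values are the authors' StringTie estimates per gene, and repeated lines of a gene were added (11 to 20 per file). The treatment of reads with several matches is not given in the sources used here.

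The genes, marker lists and pairs were chosen with earlier results of these data known. All 10 members were named, with the other keratins of highest TPM or called, the list genes of highest TPM and the defining markers. Genes were filtered with filterByExpr, scaled by TMM and tested in edgeR 4.0.16 (quasi-likelihood, 1 coefficient per group, 30 libraries, R 4.3.3), adjusted by Benjamini-Hochberg over 16261 genes. CPM used TMM-scaled library sizes. DESeq2 1.42.0 was an alternative. The fit was tested on simulated data. With 5 mice per group, tests measure the spread between mice. Correlations used log2(CPM + 0.1) and 100000 two-sided permutations (numpy).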

Additional observations from a re-analysis of the deposited data

Results flagged for a closer look

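Within a group of 5 libraries, a value was singled out where its gap to the nearest other library, divided by the group's range on the log2(CPM + 0.1) scale, exceeded Dixon's limit of 0.71. Of 55 sets of a member and a group, 9 values did so. The limit flags about 1 in 20 sets of normally distributed values. Sets of the squamous keratins hold many 0 counts, so 9 of 55 cannot be set against that rate. Male vehicle replicate 1 was high for *Krt5* (ratio 1), *Krt6a* (1), *Krt4* (0.951) and *Krt13* (0.850). *Krt4* was high in female 9-week replicate 5 (1), on 3 counts against 0 in its group. *Krt14* was low in male 9-week replicate 2 (0.770), on 8 counts. Among the simple keratins, *Krt18* was high in female 15-week replicate 2 (0.859, 789 CPM against a group median of 455), *Krt20* was high in female 15-week replicate 4 (0.770, 2151 against 1433 CPM), and *Krt8* was low in male 9-week replicate 2 (0.725, 3889 against 4487 CPM).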

How the results depend on the processing

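The number of members called was compared under DESeq2, RLE scaling, no filter, the compared libraries alone, a replicate block, the adjusted p alone, a mesenchyme covariate and, added after seeing the data, no filter without male vehicle replicate 1. Of 110 such values for counts, pairs and single-library levels, 9 moved by over 1.5 times or lost the threshold. In males at 9 weeks the count of 3 became 1 with the replicate block, 1 with the mesenchyme covariate and 1 without male vehicle replicate 1 and no filter. *Krt13* and *Krt14* there also lost their calls with no filter and with the compared libraries alone. In males at 15 weeks it became 0 with the compared libraries alone (*Krt18* 0.85 and *Krt20* 1.10, edgeR adjusted p = 0.0648 and 0.0536) and 5 with DESeq2. DESeq2 gave 2 for 9 weeks with the sexes averaged (*Krt20* and *Krt4*) and 2 for vehicle-treated males against females. *Krt4* had 1937 counts in male vehicle replicate 1 and at most 3 in each other vehicle library and each 9-week library. Leaving out 1 library at a time gave 1 to 1 at 9 weeks and 3 to 4 at 15 weeks with the sexes averaged, 1 to 4 and 2 to 5 in males, 0 to 3 between the sexes with vehicle, and 0 to 0 elsewhere. In males at 15 weeks 5 were called without male vehicle replicate 2 or 4. Between the sexes with vehicle, 3 were called without female vehicle replicate 1 or male vehicle replicate 2, 3 or 4 and 1 without male vehicle replicate 5. At 15 weeks with the sexes averaged *Krt14* was also called, lower, without male vehicle replicate 2. The cause was not tested.

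*Krt13* and *Krt14* changed direction. With the sexes averaged, *Krt13* went from -0.92 at 9 weeks and -1.44 at 15 weeks to 0.83 and 0.51 with the replicate block, 0.65 and 2.66 with the mesenchyme covariate, and 2.82 and 2.30 without male vehicle replicate 1 and no filter. *Krt14* went from -1.38 and -1.70 to 0.68 and 0.36 in the last fit and to 0.66 at 15 weeks with the covariate. In males at 9 weeks the covariate gave 1.35 for *Krt13* and 0.18 for *Krt14*, and the fit without that library and with no filter gave 3.48 and 1.05. Leaving out 1 library, *Krt13* ranged from -1.11 to 2.82 and from -1.82 to 2.30 with the sexes averaged and from -4.32 to 3.48 in males at 9 weeks, and *Krt14* from -1.54 to 0.68, from -1.92 to 0.36 and from -3.40 to 1.05. Between 15 and 9 weeks the covariate turned *Krt20* from 0.11 to -0.042, *Krt13* from -0.51 to 2.01 and *Krt14* from -0.32 to 1.25, none of them called. For *Krt5* with *Krt14*, r fell from 0.77 to 0.20 (adjusted permutation p = 0.285) without the 2 libraries farthest from the median, and for *Krt4* with *Krt13* from 0.71 to 0.16 (adjusted permutation p = 0.451). Without male vehicle replicate 1 these were 0.28 and 0.35. Over the 7 tested members, 182 of 212 alternative fold changes kept direction and side of the threshold, 13 lost the call, 1 gained it and 16 changed direction. Same-numbered libraries did not deviate together (median correlations -0.05 to 0.04), so the number was not a pairing, and the replicate block otherwise ended only the call of *Krt8* in males at 15 weeks (edgeR adjusted p = 0.0639), which was also lost with no filter (0.0643), with the mesenchyme covariate (0.0773) and without male vehicle replicate 1 and no filter (0.13). DESeq2 gave no adjusted p for *Krt13* in males at 9 weeks. Depth did not limit *Krt8*, *Krt18*, *Krt19* or *Krt20*. *Krt4*, *Krt5* and *Krt6a* lay at or below 3 counts in most libraries.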

Other observations

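A search added after seeing the data asked how many genes had at least 30 counts in a library and at most 3 in each of the other 29. Male vehicle replicate 1 had 33 such genes, and no other library had more than 5. *Krt5* led them with 1085 counts, followed by *Sprr3* (678), *Calm4* (511), *Krtdap* (386) and *Calml3* (244), all known from stratified squamous epithelium. Where the transcripts came from was not tested.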
